A study of Mus musculus with 8 samples.

Results

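The guanylate-binding proteins are a family of large GTPases that interferons, and interferon-gamma above all, induce in macrophages, endothelium and epithelium. All 10 rows of the deposited files named Gbp2, Gbp2b, Gbp3, Gbp4, Gbp5, Gbp6, Gbp7, Gbp8, Gbp9 or Gbp10 were taken, out of 56748 genes, and all 10 passed the filter on low counts that left 18495 genes for testing. They were measured in whole skin of 8 male mice aged to 35 weeks. NPY-tet mice (NPY tet/tet, n = 3) carried a tetracycline-regulated allele on both copies of Npy (strain B6;129S4-Npytm2Rpa/J). Their wild-type siblings (NPY +/+, n = 5) were the controls. No biological treatment was applied to either group, per the labels, so neither is described as given tetracycline, and the driver of the allele is not given in the sources used here. The study asked how overexpressed neuropeptide Y, a transmitter of sympathetic nerves, relates to inflammation and fibrosis of skin.

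A guanylate-binding protein hydrolyses GTP, assembles into coats on the membranes of pathogen-containing vacuoles and on bacteria, and so exposes microbial products to inflammasomes. Interferon-gamma acts through its receptor and the kinases JAK1 and JAK2, and its signal reaches promoters at GAS elements. It also induces the transcription factor IRF1, which binds interferon-stimulated response elements (ISRE) in promoters. Mice carry the genes in one cluster on chromosome 3 and another on chromosome 5, and mice lacking the chromosome 3 cluster control the parasite Toxoplasma gondii poorly.

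In the mm39 build of the files, Gbp5, Gbp7, Gbp3, Gbp2b and Gbp2 lay in that order on the plus strand of chromosome 3, between 142199739 and 142343769. Gbp8, Gbp9, Gbp4, Gbp10 and Gbp6 lay on the minus strand of chromosome 5, between 105162016 and 105441564. Npy, the altered gene, lies on chromosome 6. The annotated spans of Gbp8 and Gbp9 shared 61910 bases of the same strand, and that of Gbp4 shared 23774 bases with Gbp8 and 23773 with Gbp9. The family's sequences are alike, and how reads were divided among near-identical stretches is not given in the sources used here. Values of single members are uncertain to that extent. The shared spans may add to this for Gbp4, Gbp8 and Gbp9, and how alike the members' sequences are was not measured.

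Promoter sequences from RefSeq (GRCm38.p6, 250 bases before to 50 after each start) were held for 5 of the 10 members, those on chromosome 3. These 5 genes had lower values in every NPY-tet mouse than in every wild-type mouse, and so had Gbp6, which had no promoter entry. The members whose groups overlapped (Gbp4, Gbp8, Gbp9 and Gbp10) had no entry either. Whether a motif goes with lower values therefore could not be tested. Each stretch is 60 bases of the plus strand, 5′ to 3′. Capitals mark an ISRE-type match, which is GAAA, then any 2 bases, then GAAA, on either strand.
Gbp5, chr3:142496744-142496803: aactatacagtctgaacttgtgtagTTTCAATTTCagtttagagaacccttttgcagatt
Gbp7, chr3:142530258-142530317: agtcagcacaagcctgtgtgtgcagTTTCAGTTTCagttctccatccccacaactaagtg
Gbp3, chr3:142559974-142560033: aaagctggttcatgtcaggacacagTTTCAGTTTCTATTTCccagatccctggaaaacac
Gbp2b, chr3:142594685-142594744: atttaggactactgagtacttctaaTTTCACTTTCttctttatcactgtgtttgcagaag
Gbp2, chr3:142620579-142620638: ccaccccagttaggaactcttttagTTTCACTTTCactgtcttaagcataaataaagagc
All 5 held the motif, which occurred in 1131 of 32851 promoter sequences of the same length (3.44%). The core letters were the same in Gbp2 and Gbp2b and the same in Gbp3 and Gbp7. Gbp3 held 2 overlapping matches, and a second Gbp3 start in the table held none. The GAS-type motif TTCNNNGAA, which reads the same on both strands, was found at 2 positions each in Gbp5 and Gbp7 and at none in the windows of Gbp2, Gbp2b and Gbp3. It occurred in 8.3% of all promoter sequences. A match describes letters and not a bound site.

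Total counts ran from 32694123 to 35953372 in 3 NPY-tet libraries, and from 31370433 to 47495565 in the 5 of wild-type mice, with 1 mouse to a library. Npy itself stood at 300 to 322 CPM (library-scaled counts, with TMM size factors) in NPY-tet skin and at 0.159 to 0.502 CPM in wild-type skin. Ribosomal RNA genes took 6.54% to 8.13% of counts in an rRNA-high set of 5 libraries (NPY-tet replicate 1 and wild-type replicates 1, 2, 3 and 5). They took 0.0398% to 0.0759% in an rRNA-low set of 3 (NPY-tet replicates 2 and 3 and wild-type replicate 4), and no label names this split. Each member and each gene list is therefore also given within the sets, where the rRNA-high set has 1 NPY-tet mouse and the rRNA-low set 1 wild-type mouse.

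The family as a whole was less abundant in NPY-tet than in wild-type skin. Summed over the 10 genes, FPKM (fragments scaled to gene length and library size, which allow levels to be compared between genes) were 11.8, 10.997 and 15.6 in NPY-tet replicates 1 to 3. They were 19.5, 24.4, 25.6, 28.1 and 34.2 in wild-type replicates 1 to 5, so that no NPY-tet library reached the lowest wild-type one. The means were 12.8 ± 2.48 FPKM in NPY-tet and 26.3 ± 5.39 FPKM in wild-type mice (SD, n = 3 and 5). In whole tissue, fewer cells of a type and less RNA per cell cannot be told apart.

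**Figure D1:**
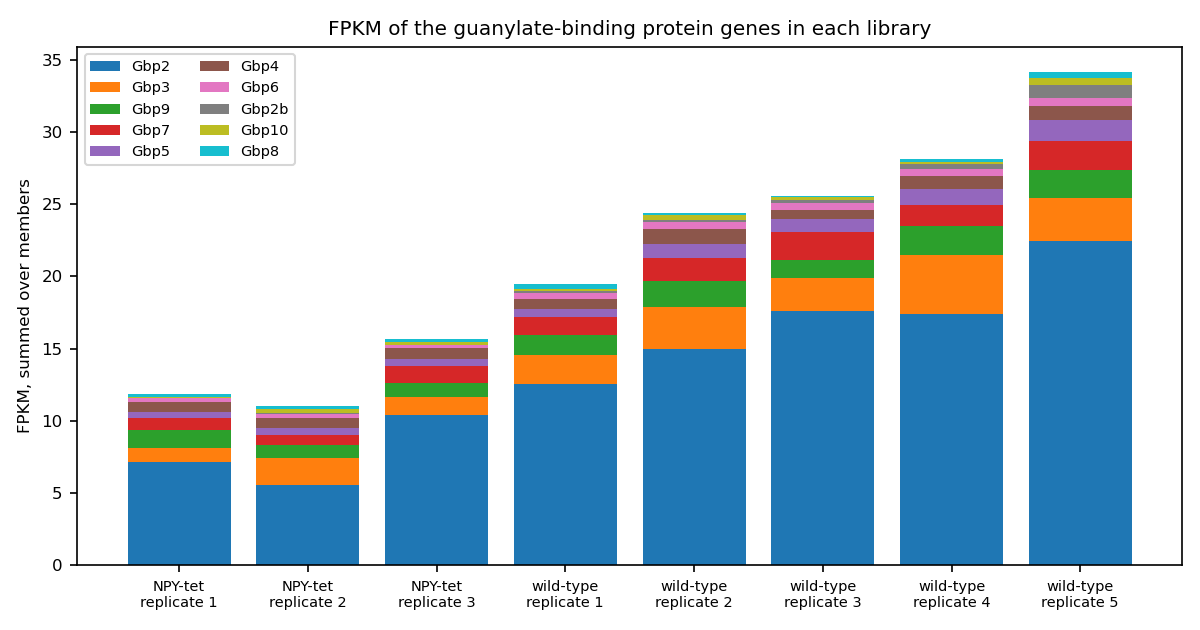
Stacked deposited FPKM of the 10 genes in each library, NPY-tet replicates 1 to 3 left of wild-type replicates 1 to 5. The summed FPKM runs from 10.997 to 15.6 in NPY-tet and from 19.5 to 34.2 in wild-type libraries, and Gbp2 is the widest band in each.

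Gbp2 was the most abundant member in every library, and it supplied 50.7% to 66.2% of the family's FPKM in NPY-tet skin and 61.4% to 68.8% of it in wild-type skin. In wild-type skin Gbp3 followed at 2.87 ± 0.796 FPKM, then Gbp9 (1.68 ± 0.336), Gbp7 (1.61 ± 0.329), Gbp5 (1.00 ± 0.336) and Gbp4 (0.842 ± 0.185). Gbp6 (0.492 ± 0.0419), Gbp2b (0.362 ± 0.311), Gbp10 (0.254 ± 0.125) and Gbp8 (0.230 ± 0.145) came last. Only the steps from Gbp2 to Gbp3, from Gbp3 to Gbp9 and from Gbp4 to Gbp6 were larger than the SDs of both neighbours added together. Compared within each mouse, Gbp7 was also above Gbp5 in 5 of 5 mice. The other steps held in 3 or 4 of 5, so the order is otherwise not settled by these 5 mice. In NPY-tet skin the order of means was the same for the first 4, with Gbp2 at 7.69 ± 2.44 and Gbp3 at 1.36 ± 0.464 FPKM. Gbp3 was above Gbp9 in 2 of 3 NPY-tet mice, and Gbp9 above Gbp7 in 2 of 3. There Gbp4 (0.719 ± 0.00781 FPKM) stood above Gbp5 (0.462 ± 0.0677 FPKM) in all 3 mice, whereas in wild-type skin Gbp5 was above Gbp4 in 3 of 5. Gbp2b was last in NPY-tet skin, at 0.0162 ± 0.0146 FPKM.

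Each log2 fold change is NPY-tet relative to wild-type, with its standard error (SE), and comes from the quasi-likelihood test of edgeR over all genes, with Benjamini-Hochberg adjustment. All 10 members had fitted values below 0, as had 49.3% of all genes tested. The members' median was -0.88 against 0.00 over all genes (-1.12 and -1.04 in the rRNA-high and rRNA-low sets, against 0.01 in each). At an adjusted p under 0.05, 0 members passed, and 1 gene of 18495, Npy, did (0.00541%). At an unadjusted p under 0.05, 7 members were lower and 0 higher, beside 3.55% of all genes lower and 2.43% higher. In 6 members every NPY-tet mouse lay below every wild-type mouse, a pattern that 1.98% of all genes showed, with 0 members and 1.81% of all genes the other way round. By DESeq2, which called 0.206% of genes lower and 0.093% higher, 4 members passed and were lower (Gbp2, Gbp2b, Gbp3 and Gbp5). Gbp2b alone reached the filter's level in no NPY-tet library and passed through its wild-type values. Without it the counts were 6 of 9 at an unadjusted p under 0.05 and 5 of 9 without overlap, and the median was again -0.88.

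**Figure D2:**
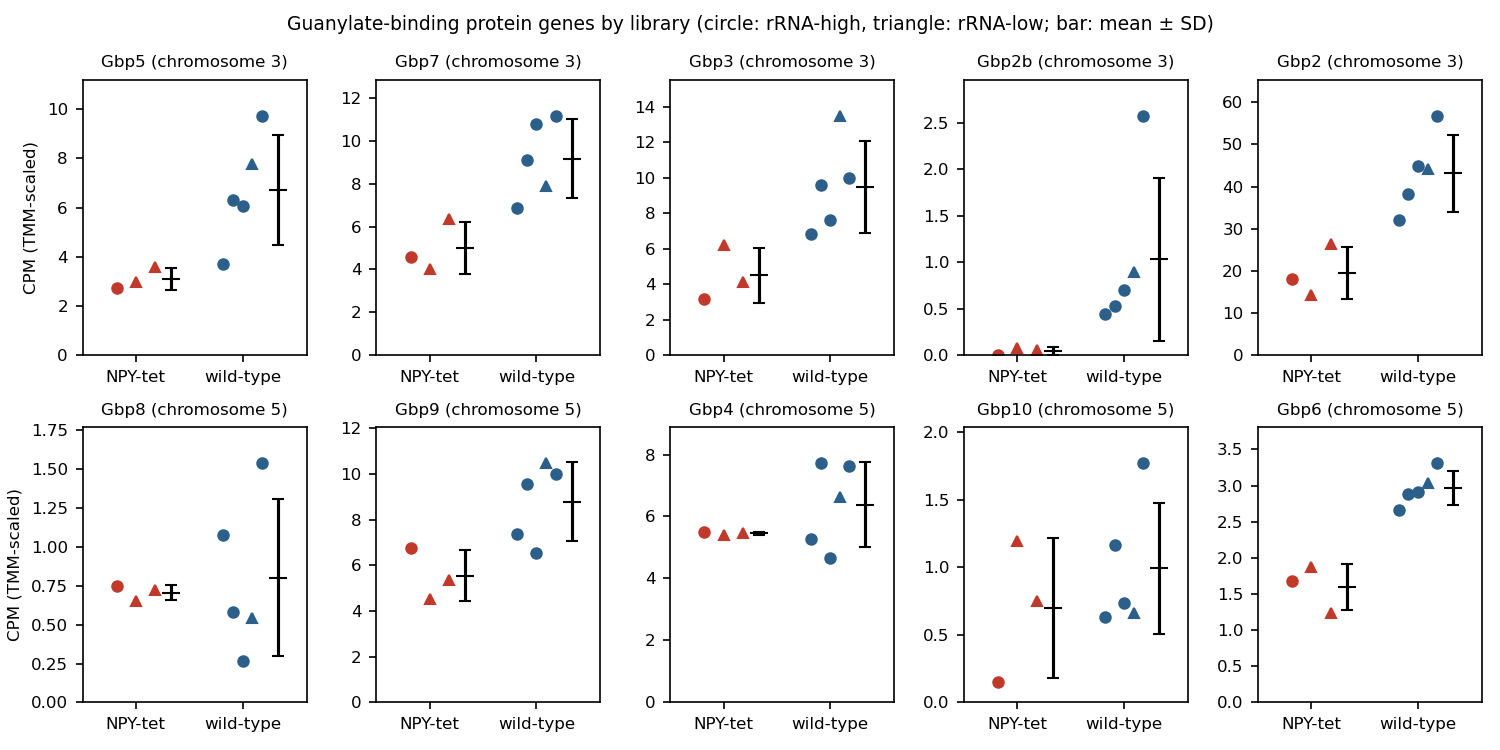
CPM of each member in each library, with NPY-tet (red) left of wild-type (blue), the black bar showing mean ± SD, circles the rRNA-high and triangles the rRNA-low libraries; each panel has its own axis from 0. In the 5 genes of chromosome 3 (upper row) and in Gbp6, no NPY-tet point reaches the wild-type points.

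Gbp2, which in mouse macrophages coats bacterial and parasite vacuoles and promotes inflammasome activation, had 18.1, 14.2 and 26.4 CPM in NPY-tet replicates 1 to 3. It had 32.2, 38.2, 44.8, 44.1 and 56.8 CPM in wild-type replicates 1 to 5. The highest NPY-tet mouse was thus below the lowest wild-type mouse, on 525 to 914 counts per NPY-tet library and 1015 to 2207 per wild-type library. The log2 fold change was -1.14 (SE 0.23), with an adjusted p of 0.346 by edgeR and of 0.0014 by DESeq2. Within the rRNA-high and rRNA-low sets it was -1.23 and -1.13. It ran from -1.41 to -0.96 when each library was left out in turn (edgeR adjusted p 0.06 to 0.943).

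Gbp2b, formerly called Gbp1, is among the members reported to restrict bacteria in mouse macrophages, and it was close to undetected in NPY-tet skin. It had 0, 3 and 2 counts in NPY-tet replicates 1 to 3 and 14, 21, 21, 45 and 77 counts in wild-type replicates 1 to 5. The levels were 0, 0.0813 and 0.0577 CPM in NPY-tet skin, and 0.444, 0.532, 0.704, 0.900 and 2.57 CPM in wild-type skin. Each NPY-tet library was at or under the limit that a count of 0 allows (0.0773 to 0.0865 CPM), and each wild-type library was above it. Over the groups, 5 and 178 counts gave an NPY-tet to wild-type ratio of 0.0460 (95% Poisson interval 0.0148 to 0.109, for counting error alone). The edgeR log2 fold change was -4.39 (SE 0.92; adjusted p 0.346), a value that rests on those 5 counts, and by DESeq2 the adjusted p was 0.000869. Without wild-type replicate 5, the highest mouse, it was -3.73. It was -3.65 in the rRNA-low set. In the rRNA-high set the single NPY-tet library was at 0, and taking 3 counts as the most it could hold puts wild-type skin at least 13.8-fold higher, or at least 7.25-fold higher without wild-type replicate 5.

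Gbp3, another chromosome 3 member, stood at 3.17, 6.18 and 4.12 CPM in NPY-tet replicates 1 to 3, against 6.82, 9.57, 7.61, 13.5 and 9.97 CPM in wild-type replicates 1 to 5. NPY-tet replicate 2 came close to the lowest wild-type mouse, and the other NPY-tet mice were lower. The log2 fold change was -1.08 (SE 0.28, edgeR adjusted p 0.545, DESeq2 adjusted p 0.0375), and -1.40 within either set. NPY-tet replicate 1, the lowest library, is the NPY-tet arm of the rRNA-high set. Wild-type replicate 4, the highest library, is the wild-type arm of the rRNA-low set. The log2 fold change was -0.88 without NPY-tet replicate 1 and -0.92 without wild-type replicate 4.

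Gbp5, reported in mouse macrophages to promote assembly of the NLRP3 inflammasome, stood at 2.73, 2.98 and 3.60 CPM in NPY-tet replicates 1 to 3. In wild-type replicates 1 to 5 it stood at 3.71, 6.30, 6.07, 7.76 and 9.73 CPM. The groups did not overlap, but wild-type replicate 1 lay just above the NPY-tet mice. The log2 fold change was -1.11 (SE 0.29; edgeR adjusted p 0.548, DESeq2 adjusted p 0.0486), with -1.22 and -1.25 in the rRNA-high and rRNA-low sets.

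Gbp7, which has been linked in mouse macrophages to assembly of the phagocyte NADPH oxidase, stood at 4.58, 4.04 and 6.34 CPM in NPY-tet replicates 1 to 3. The wild-type values were 6.88, 9.09, 10.8, 7.88 and 11.2 CPM. NPY-tet replicate 3 was close to wild-type replicate 1. The log2 fold change was -0.88 (SE 0.23; edgeR adjusted p 0.548, DESeq2 adjusted p 0.0636), and within the rRNA-high and rRNA-low sets it was -1.03 and -0.61.

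On chromosome 5 the values of Gbp6 separated the groups. It had 1.67, 1.87 and 1.24 CPM in NPY-tet replicates 1 to 3 and 2.66, 2.89, 2.92, 3.04 and 3.31 CPM in wild-type replicates 1 to 5. The wild-type mice lay close together and all above the NPY-tet mice. The log2 fold change was -0.89 (SE 0.26; edgeR adjusted p 0.614, DESeq2 adjusted p 0.109), with -0.79 and -0.98 in the rRNA-high and rRNA-low sets.

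Gbp9 had 6.77, 4.53 and 5.36 CPM in NPY-tet skin and 7.39, 9.54, 6.54, 10.5 and 9.999 CPM in wild-type skin. NPY-tet replicate 1 exceeded wild-type replicate 3, so the groups overlapped. Its log2 fold change was -0.66 (SE 0.22; edgeR adjusted p 0.711), -0.28 in the rRNA-high and -1.09 in the rRNA-low set.

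Gbp4, reported in mouse cells to dampen the interferon regulatory factor IRF7, had 5.49, 5.39 and 5.48 CPM in NPY-tet replicates 1 to 3, which lay within the wild-type values of 5.26, 7.72, 4.66, 6.64 and 7.62 CPM. The log2 fold change was -0.23 (SE 0.21; edgeR adjusted p 0.845), and -0.18 and -0.30 within the rRNA-high and rRNA-low sets.

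Gbp8 and Gbp10 were the sparse members of chromosome 5, with 8 to 46 and 6 to 53 counts per library. Gbp8 had 0.747, 0.650 and 0.721 CPM in NPY-tet skin and 1.08, 0.582, 0.268, 0.540 and 1.54 CPM in wild-type skin. The NPY-tet mice sat inside the wild-type range, and the log2 fold change of -0.18 (SE 0.53; edgeR adjusted p 0.953) turned to 0.20 without wild-type replicate 5. It was -0.19 in the rRNA-high set and 0.33 in the rRNA-low set. Gbp10 had 0.155, 1.19 and 0.750 CPM in NPY-tet skin and 0.634, 1.16, 0.738, 0.660 and 1.77 CPM in wild-type skin. NPY-tet replicate 1, on 6 counts, was the lowest library, and the other NPY-tet mice lay among the wild-type ones. Its log2 fold change of -0.50 (SE 0.59; edgeR adjusted p 0.874) was -0.03 without NPY-tet replicate 1 and -1.14 without NPY-tet replicate 2. It was -2.75 in the rRNA-high set, where that mouse of 6 counts is the NPY-tet arm (edgeR adjusted p 0.22), and 0.54 in the rRNA-low set.

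**Figure D3:**
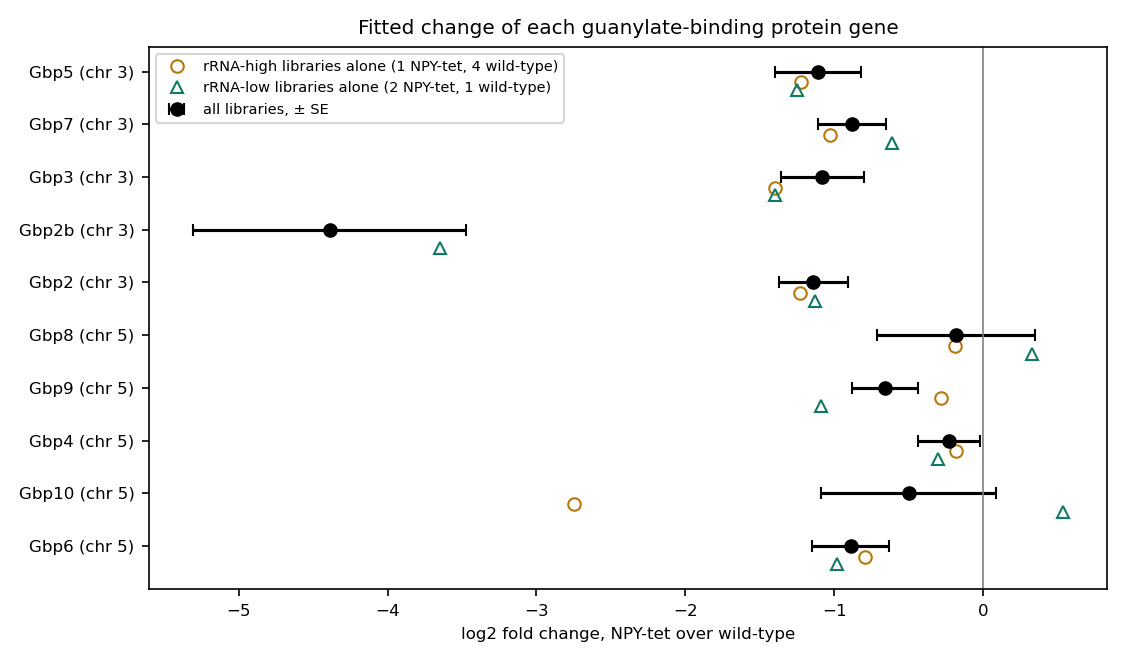
Log2 fold change of each member, NPY-tet over wild-type, with its SE over all libraries (black) and within the rRNA-high (open circle) and rRNA-low (open triangle) libraries; no circle is drawn for Gbp2b, whose NPY-tet value there is 0. The 5 genes of chromosome 3 lie between -4.39 and -0.88 and the 5 of chromosome 5 between -0.89 and -0.18.

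On chromosome 3 all 5 members had an unadjusted p under 0.05 and no overlap, and their median was -1.11 on the log2 scale (-1.23 and -1.25 in the rRNA-high and rRNA-low sets). Without Gbp2b this held for 4 of 4, with a median of -1.10. On chromosome 5, 2 of 5 had an unadjusted p under 0.05 and 1 had no overlap, with a median of -0.50 (-0.28 and -0.30 in the sets). Summed FPKM of chromosome 3 were 9.29, 8.62 and 13.3 in NPY-tet replicates 1 to 3 and 16.5 to 29.8 in wild-type mice. Those of chromosome 5 were 2.55, 2.37 and 2.36 in NPY-tet replicates 1 to 3 and 2.61 to 4.38 in wild-type mice. Chromosome 5 genes made up 19.4% ± 3.75 of the family's FPKM in NPY-tet and 13.4% ± 2.17 in wild-type skin (SD, n = 3 and 5), with ranges that overlapped (15.1% to 21.6% in NPY-tet mice, 10.2% to 15.5% in wild-type mice). Whether the clusters differ in their response was not tested, since the grouping was seen with the values.

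A further family row, Gbp11, which lies beside Gbp6 and is not among the 10 genes, had 12 to 18 counts in NPY-tet and 16 to 65 counts in wild-type libraries. Its level was 0.407 ± 0.0731 CPM in NPY-tet and 0.900 ± 0.325 CPM in wild-type skin, with a log2 fold change of -1.14 (SE 0.45; unadjusted p 0.025, edgeR adjusted p 0.795), and -1.02 and -1.65 in the rRNA-high and rRNA-low sets. In CPM the groups did not overlap, with NPY-tet mice at 0.346 to 0.488 CPM, below all wild-type mice (0.507 to 1.30 CPM). With Gbp11 counted in, 3 of 6 chromosome 5 genes had an unadjusted p under 0.05 and 2 of 6 had no overlap, with a median of -0.58. The pseudogene Gbp2-ps had 0 counts in all 8 libraries.

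Among the listed genes of the interferon-gamma pathway, Irf1, Irf8 and Socs1 had lower values in every NPY-tet mouse than in every wild-type mouse. The margin was narrow for Irf8 (highest NPY-tet mouse 17.2 CPM, lowest wild-type mouse 17.3 CPM) and for Socs1 (5.07 and 5.13 CPM). Irf1, itself induced by interferon-gamma, stood at 25.1, 19.7 and 25.3 CPM in NPY-tet and 30.9 to 42.4 CPM (median 34.9) in wild-type skin, a log2 fold change of -0.61 (SE 0.15; edgeR adjusted p 0.535). Socs1, a feedback inhibitor of the pathway, had a log2 fold change of -0.66 (SE 0.22; edgeR adjusted p 0.708). Irf8, a factor of myeloid cells, had one of -0.53 (SE 0.18; edgeR adjusted p 0.743). The receptor chains did not show this: Ifngr1 stood at 159 ± 26.3 CPM in NPY-tet and 152 ± 19.2 CPM in wild-type skin, and Ifngr2 at 55.4 ± 3.63 CPM in NPY-tet and 61.0 ± 9.13 CPM in wild-type skin. Transcripts of the ligand, Ifng, were at 0 to 3 counts per NPY-tet library and at 1 to 12 per wild-type library, too few to be tested. Of the 10 tested genes of this list, 0 passed over all genes by edgeR or DESeq2. At an unadjusted p under 0.05, 5 were lower and 0 higher, beside 3.55% and 2.43% of all genes. The list's median was -0.33 (-0.29 and -0.62 in the rRNA-high and rRNA-low sets).

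Other interferon-induced genes stood lower as well. The immunity-related GTPases, which act on the same vacuoles as the guanylate-binding proteins, had 5 of 7 tested members lower at an unadjusted p under 0.05 and 5 without overlap. Their median was -1.18 (-1.11 and -1.28 in the rRNA-high and rRNA-low sets), and 5 passed by DESeq2. Of the other interferon-gamma-inducible genes 9 of 14 were lower at an unadjusted p under 0.05 (median -0.59, in the sets -0.62 and -0.74; 2 passed by DESeq2). Of type I interferon-stimulated genes 15 of 23 were (median -0.99, in the sets -1.35 and -1.61, with 7 passed by DESeq2). Each set's median for the type I list rests on 1 extreme mouse. Wild-type replicate 4, the wild-type arm of the rRNA-low set, had the highest sum, 357.2 CPM, against 165.7 to 269.5 CPM in other wild-type mice. NPY-tet replicate 1, the NPY-tet arm of the rRNA-high set, had the lowest, 105.3 CPM. By edgeR 0 genes of these 3 lists passed over all genes, and 0 were higher at an unadjusted p under 0.05. Groups did not overlap, with NPY-tet mice lower, for 4 of the 14 other interferon-gamma-inducible and 10 of the 23 type I genes. Over all genes tested, 3.55% were lower at an unadjusted p under 0.05 and 1.98% were lower without overlap. DESeq2 called 0.206% of genes lower. Cxcl9, a T cell chemokine that interferon-gamma induces, stood at 1.75, 0.976 and 1.47 CPM in NPY-tet skin and 2.88 to 7.09 CPM (median 4.34) in wild-type skin. Its log2 fold change was -1.87 (SE 0.36; edgeR adjusted p 0.322). The guanylate-binding proteins' median of -0.88 lay within the range of these lists, and no test of a difference between lists was made.

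**Figure D4:**
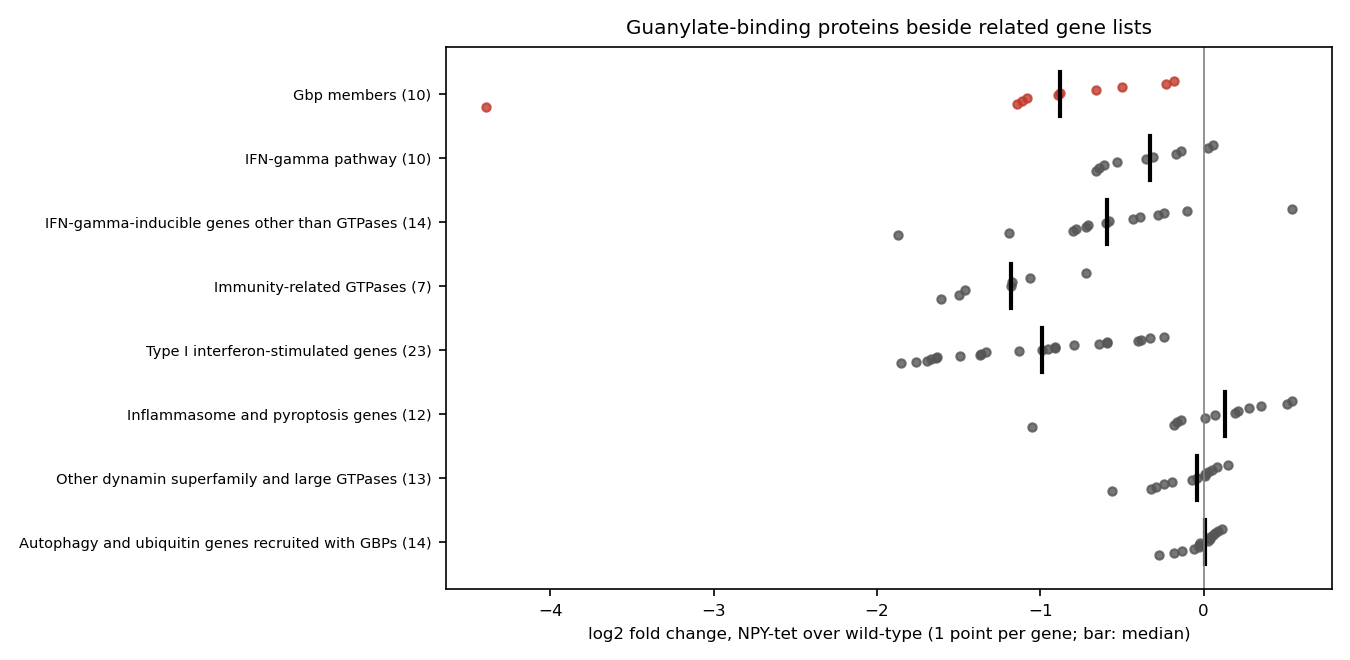
Log2 fold change of each tested gene (points) and the median (bar) for the 10 guanylate-binding protein genes and 7 related lists, NPY-tet over wild-type. The 4 interferon-related lists have medians from -1.18 to -0.33, the inflammasome, other large GTPase and autophagy lists from -0.04 to 0.13.

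Genes that work downstream of guanylate-binding proteins, or resemble them without being interferon-induced, did not share these values. Of 12 inflammasome and pyroptosis genes 0 were lower and 2 higher at an unadjusted p under 0.05, beside 3.55% and 2.43% of all genes. The list's median was 0.13 (0.27 and -0.02 in the rRNA-high and rRNA-low sets). Casp4, the mouse sensor of cytosolic lipopolysaccharide that acts with guanylate-binding proteins, stood at 10.7, 8.10 and 10.3 CPM in NPY-tet and 5.40 to 7.68 CPM (median 6.28) in wild-type skin. Every NPY-tet mouse was above every wild-type mouse, with a log2 fold change of 0.54 (SE 0.18; edgeR adjusted p 0.724). Casp1, the caspase that matures interleukin-1 beta, stood at 25.5, 25.0 and 27.7 CPM in NPY-tet and 20.1 to 24.1 CPM (median 20.6) in wild-type skin (log2 fold change 0.28, SE 0.12; edgeR adjusted p 0.795). Of 13 other large GTPases, among them the atlastins and dynamins, 1 was lower (Ehd4, unadjusted p 0.0378), with a median of -0.04 (-0.12 and -0.02 in the sets). Of 14 autophagy and ubiquitin genes that act where guanylate-binding proteins gather, 0 were lower or higher, with a median of 0.01 (0.10 and -0.15 in the sets). In these 3 lists 0 genes passed by edgeR or by DESeq2.

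Across the 8 libraries, the genes whose pattern lay nearest to the family's were sought among 13760 genes of at least 1 CPM. The measure was the root mean square difference between a gene's log2 CPM and the mean log2 CPM of the 10 members, each centred on its own mean. Its median over those genes was 0.595. The mean of the members included Gbp2b, which passed the filter through its wild-type values. Gbp2b had the widest centred range, 5.58 on the log2 scale, against 0.72 to 3.12 for the other members. No mean without Gbp2b was used. Among the nearest were Irgm2 (0.177) and Igtp (0.202), both immunity-related GTPases. Then came Adrb3 (0.236), the beta-3 adrenergic receptor of adipocytes, and Cox4i2 (0.239), a cytochrome c oxidase subunit. Mlkl (0.270), the executor of necroptosis, Tox (0.278) and the zinc finger gene Zfp382 (0.281) followed. Irgm2 stood at 27.7, 23.7 and 29.7 CPM in NPY-tet and 42.9 to 78.1 CPM (median 49.3) in wild-type skin. Adrb3 had 29.3, 34.6 and 35.7 CPM in NPY-tet replicates 1 to 3. Its wild-type values ran from 44.4 to 79.9 CPM (median 61.8), without overlap. The log2 fold change of Adrb3 was -0.9 (SE 0.18; edgeR adjusted p 0.346, DESeq2 adjusted p 0.00509). These genes were picked for likeness to a family mean that itself separated the groups (at most 1.28 log2 CPM for NPY-tet, at least 1.79 for wild-type). That choice favours genes without overlap and with large fold changes. Neither their lack of overlap nor their fold changes and p-values, those of Adrb3 included, are a separate result. Among the members themselves Gbp5 lay nearest to the family mean, which it enters (0.205), and Gbp2b farthest (1.203).

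Cell type markers are set beside the family here, and by edgeR 0 of those in the 9 lists below passed. Of 12 macrophage markers 6 were lower and 1, Cd163, was higher at an unadjusted p under 0.05, beside 3.55% and 2.43% of all genes. The macrophage markers' median was -0.42 (-0.19 and -0.96 in the rRNA-high and rRNA-low sets). Their summed level was 759 to 1236 CPM in NPY-tet and 1197 to 1695 CPM in wild-type libraries. Cd163 stood at 116, 69.5 and 97.3 CPM in NPY-tet replicates 1 to 3 and 36.8 to 82.3 CPM (median 52) in wild-type mice. The groups overlapped, with a log2 fold change of 0.72 (SE 0.24; edgeR adjusted p 0.727, DESeq2 adjusted p 0.289). By DESeq2 1 of the markers passed, Folr2, a folate receptor of resident macrophages, at 4.97, 4.28 and 9.20 CPM in NPY-tet replicates 1 to 3 and 10.2 to 15.2 CPM (median 12.3) in wild-type mice. Its log2 fold change was -1.02 (SE 0.25; edgeR adjusted p 0.535, DESeq2 adjusted p 0.0288), and in the other 8 lists 0 markers passed by DESeq2. Dendritic and Langerhans cell markers had 4 of 12 lower (median -0.22, in the sets -0.56 and -0.58). Their summed levels were 1422 to 2239 CPM in NPY-tet libraries and 2177 to 3603 CPM in wild-type libraries. The lowest sum was that of NPY-tet replicate 1 and the highest that of wild-type replicate 4, each alone in its group within a set. T and NK cell markers, whose cells make interferon-gamma, had 1 of 15 lower (median -0.38), with sums of 40.0 to 54.9 CPM in NPY-tet and 39.3 to 98.4 CPM in wild-type libraries. The median of the T and NK list was 0.09 in the rRNA-high set, which has 1 NPY-tet mouse, and -1.02 in the rRNA-low set. In the latter wild-type replicate 4, the library with the highest sum (98.4 CPM), is the wild-type arm. Blood endothelial markers had 1 of 12 lower (median -0.14, in the sets 0.07 and -0.42) and basal and spinous keratinocyte markers 0 of 12 (median 0.02, in the sets 0.08 and -0.32). The keratinocyte markers, which define skin, summed to 13990 to 21710 CPM in NPY-tet libraries and 16280 to 24770 CPM in wild-type libraries. Markers of white adipocytes had 4 of 12 lower and 1 higher (median -0.47, in the sets -0.79 and -0.71). Those of dermal fibroblasts (median -0.04), skeletal muscle (-0.38) and hair shaft and follicle (0.73) had 0 in either direction, and their levels varied widely between libraries. Fibroblast markers (-0.62 and -0.05 in the sets) summed to 3017 CPM in NPY-tet replicate 1, against 18610 and 26130 CPM in the other NPY-tet libraries and 11110 to 24800 CPM in those of wild-type mice. Muscle markers (-1.07 and 0.43 in the sets) summed to 33610 to 51260 CPM in NPY-tet libraries, and in wild-type libraries to 33950 CPM in replicate 4 and 52190 to 82950 CPM in the others. Hair markers summed to 1589, 3234 and 313 CPM in NPY-tet replicates 1 to 3, and to 238, 5.29, 11.0, 10.3 and 4977 CPM in wild-type replicates 1 to 5. Their median was 0.14 in the rRNA-high set and 9.11 in the rRNA-low set, where wild-type replicate 4 is the wild-type arm. None of the 16 lists' members in the file was at 0 in all libraries, and the part of these cells in the family's values was not tested.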

How the data were processed

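RNA of whole skin was selected with poly-T beads and made into non-directional libraries, per the labels' protocols. The authors deposited raw counts for each Ensembl gene. They also deposited FPKM, which equal those counts over the listed gene length and over 1 scaling value for each column. The submitters' processing notes name mm39, DESeq2 1.20.0, featureCounts 1.5.0-p3, HISAT2 2.0.5 and CASAVA, without their roles. Columns were joined to samples by the mouse number in the titles; the descriptions give a number higher by 1 to samples 3 to 8, under an unchanged genotype.

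Counts were fitted with edgeR 4.0.16 in R 4.3.3 (filterByExpr, TMM, robust quasi-likelihood F-test, two-sided, genotype as the only term), adjusted over 18495 genes with a threshold of 0.05. The SE is the size of the log2 fold change over the square root of F. Alternatives were other size factors and filters, DESeq2 1.42.0, limma 3.58.1 on counts (voom) and on log2 FPKM with pseudocounts of 1 and 0.1, the replicate block, the rRNA set (boundary 1% of counts) and each library left out. The members, the 16 lists (213 symbols, 3 not in the file) and the naming rule (all members, up to 4 per list by smallest p, 8 nearest patterns; 1 gene that it names is not reported here) were chosen with earlier results of these data known. Named outside the rule are Gbp11, Gbp2-ps, Ifng, Ifngr1 and Ifngr2. The procedures were tested on simulated data with planted changes at the same group sizes, where a larger share of the genes called was false with DESeq2 than with edgeR.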

Additional observations from a re-analysis of the deposited data

Results flagged for a closer look

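Gbp2b in wild-type replicate 5 stood apart from the other wild-type mice, at 2.57 CPM against 0.444 to 0.900 CPM, and the gap to its nearest neighbour was 0.786 of the group's range. About 1 in 20 groups is marked in this way by chance, and 10 genes were examined. The same mouse had the highest summed FPKM of the family, 34.2.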

How the results depend on the processing

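Against 1 gene called with all libraries, 21 were called with no filter on low counts, 61 by DESeq2, 3 by limma-voom and 2 by limma on log2 FPKM with either pseudocount. The count was 11 with the rRNA set as a covariate, 332 in the rRNA-high and 227 in the rRNA-low libraries alone, and 2 in replicates 1 to 3 alone, a choice made after seeing the data. Leaving out each library gave 1 to 8, with 8 without NPY-tet replicate 3. Over all genes tested, 656 of 18495 were lower at an unadjusted p under 0.05 with all libraries. This background changed with the setting, from 381 of 19021 genes without NPY-tet replicate 2 to 1527 of 19120 without NPY-tet replicate 3. Members lower at an unadjusted p under 0.05 numbered 5 to 7 over 21 alternatives, against 7. Of 208 values of single members 194 kept direction and side of the threshold, 8 passed it and 6 changed direction; the cause was not tested. Those that passed were Gbp2, Gbp2b, Gbp3 and Gbp5 by DESeq2, Gbp2 and Gbp2b without the filter (adjusted p 0.0195 and 0.0193), and Gbp2 and Gbp3 in the rRNA-low libraries (0.0123 and 0.0286), where 1 wild-type mouse is assumed to vary like the NPY-tet mice. Gbp8 changed direction with the replicate block (0.28), in replicates 1 to 3 alone (0.14), with the covariate (0.04) and in the rRNA-low libraries (0.33), and left-out libraries moved it from -0.39 to 0.20. Gbp10 was 0.54 in the rRNA-low libraries. Deviations from the group means correlated at -0.04, -0.11 and 0.30 between same-numbered libraries, and at -0.23 to 0.12 between others. These few values cannot settle whether the numbers pair the mice. With the replicate block 1 gene was called. Counts of 0 to 77 per library limit Gbp2b, Gbp8 and Gbp10. Replicates were not stated to differ in litter or day, and p-values reflect the spread between these mice.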
